A study of Mus musculus with 6 samples.

Results

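The genes described here are 8 mouse genes for receptors that bind the constant part of IgG or IgE, taken by symbol from a spleen table of 40808 Entrez gene IDs. The members are Fcgr1, Fcgr2b, Fcgr3, Fcgr4, Fcer1g, Fcer1a, Fcgrt and Ms4a2, and all 8 were found. RNA came from leukaemia cells of the spleen of bone marrow transplanted mice, as the labels put it, and was sequenced as 3′ ends of mRNA in 6 libraries. In 3 of them (replicates 4, 5 and 6) the treatment is labelled as no, and in the other 3 (replicates 10, 11 and 12) as Dox. Strain, age, sex, any transgene and its promoter, the transplanted cells, and the dose and duration of Dox are not given in the sources used here, nor is it stated whether each library came from its own mouse. P-values therefore measure the spread between these libraries, which may be technical.

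Fc receptors let leukocytes sense antibody. Fcgr1, Fcgr3 and Fcgr4 encode ligand-binding chains of activating IgG receptors, which signal through the common gamma chain encoded by Fcer1g, an adaptor with an activation motif (ITAM) in its tail. Fcgr2b encodes the inhibitory IgG receptor, whose inhibitory motif recruits the lipid phosphatase SHIP1, and it is the IgG receptor of B cells. Fcer1a and Ms4a2 encode the alpha and beta chains of the high-affinity IgE receptor of mast cells and basophils. Fcgrt encodes the heavy chain of the neonatal receptor FcRn, which pairs with beta-2-microglobulin, binds IgG in acidic endosomes and returns it to the cell surface.

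Fcgr2b, Fcgr4, Fcgr3 and Fcer1g lie together within 273.8 kb of chromosome 1 (GRCm38, the build named in the submitters' processing notes; 170960558 to 171234349), in RefSeq's annotation of that assembly. Fcer1a is further along the same chromosome (173221269 to 173227232). Fcgr1 is on chromosome 3 (96282909 to 96293969), Fcgrt on chromosome 7 (45092993 to 45103822) and Ms4a2 on chromosome 19 (11615517 to 11623790). The 300 bases around the start of 4 of these neighbours are shown because, as described further on, they differed in direction although they sit side by side: the level of Fcgr4 was higher with Dox and that of Fcgr3 lower, while Fcgr2b and Fcer1g did not pass the test. The windows are RefSeq's for GRCm38.p6, hold 250 bases before the annotated start and 50 after, and read 5′ to 3′ on the gene's own strand. Capitals mark matches on either strand to the motifs GAGGAA (PU box), GAAANN directly followed by GAAA (an IRF pair), TTCNNNGAA (GAS) and TGTGGT (RUNX).
Fcgr4, chr1:171018676-171018975, plus strand: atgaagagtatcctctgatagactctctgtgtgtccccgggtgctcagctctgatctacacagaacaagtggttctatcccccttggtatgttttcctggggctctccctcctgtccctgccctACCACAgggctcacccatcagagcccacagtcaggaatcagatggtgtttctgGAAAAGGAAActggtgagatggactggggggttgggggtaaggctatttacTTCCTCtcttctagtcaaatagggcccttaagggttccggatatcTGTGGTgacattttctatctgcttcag
Fcgr3, chr1:171059354-171059653, minus strand: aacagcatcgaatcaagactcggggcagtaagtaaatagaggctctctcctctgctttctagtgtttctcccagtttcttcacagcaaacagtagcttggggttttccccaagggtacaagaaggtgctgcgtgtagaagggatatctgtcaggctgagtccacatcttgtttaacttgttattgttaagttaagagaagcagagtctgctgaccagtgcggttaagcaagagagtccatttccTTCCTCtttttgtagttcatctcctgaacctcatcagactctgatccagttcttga
Fcgr2b, chr1:170976022-170976321, minus strand: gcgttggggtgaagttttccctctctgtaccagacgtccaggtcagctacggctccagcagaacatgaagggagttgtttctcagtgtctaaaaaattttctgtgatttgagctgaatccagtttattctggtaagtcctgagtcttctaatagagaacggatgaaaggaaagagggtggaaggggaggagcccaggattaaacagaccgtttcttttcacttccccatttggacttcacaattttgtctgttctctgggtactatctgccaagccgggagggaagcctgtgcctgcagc
Fcer1g, chr1:171234300-171234599, minus strand: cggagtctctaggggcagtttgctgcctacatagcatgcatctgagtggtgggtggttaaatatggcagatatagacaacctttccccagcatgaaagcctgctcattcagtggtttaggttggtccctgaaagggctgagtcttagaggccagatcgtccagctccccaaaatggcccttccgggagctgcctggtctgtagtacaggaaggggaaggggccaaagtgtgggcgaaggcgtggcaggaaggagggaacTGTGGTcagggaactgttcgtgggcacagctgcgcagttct

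The Fcgr4 window held 1 PU box, 1 IRF pair and 2 RUNX matches. The PU box began 22 bases before the start, and the IRF pair 73 bases before it. The Fcgr3 window held a single PU box, beginning 6 bases before the start. RefSeq gives a second window for Fcgr3, from 171059345 to 171059644, in which the same letters begin 15 bases before the start. The annotated gene reaches further 5′, to 171065915, so neither window covers its outermost end. In the window of Fcer1g 1 RUNX match was found, and the window of Fcgr2b held none of the 4 motifs. Of 32851 mouse promoter windows of the same length, 28.3% held a PU box, 3.44% an IRF pair, 8.3% a GAS match and 16.8% a RUNX match. No binding was measured in this series, so these matches describe letters only.

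The groups differed in much besides Dox. Library totals ran from 5541486 to 8725767 counts, and the 8 genes together took between 0.00626% and 0.0101% of them. Summed T cell markers, the markers of the T lineage, were at 3157 to 3410 normalized CPM (CPM, counts divided by TMM-scaled library size) without Dox and at 215 to 242 with Dox. Ddx3y, on the Y chromosome, had 223 to 313 counts in the libraries without Dox and 0 in those with Dox, whereas Xist had 193 to 324 and 3347 to 5669. Haemoglobin genes took 8.61% to 9.04% of counts without Dox and 14.1% to 15.9% with Dox, and TMM factors were 0.870 to 0.930 and 1.08 to 1.14. With the haemoglobin genes left out Fcgr3 and Fcgr4 changed by -1.82 and 1.55 on the log2 scale (edgeR adjusted p = 0.00206 and 0.0136). Each library without Dox held counts of both Ddx3y and Xist. Effects of Dox, of sex and of the mix of transplanted and recipient cells cannot be told apart here. In RNA of mixed cells, fewer cells of a type and less RNA per cell cannot be told apart either.

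Among the Fc receptor genes 1 rose and 1 fell with Dox. Fcgr4 rose 2.97-fold and Fcgr3 fell to 0.284 of its level without Dox. Of the 8 genes, 6 passed the filter on low counts, 5 of them with at least 18 counts in every library, and 4 of these 6 did not pass the test. Genes past an adjusted p-value of 0.05 (edgeR quasi-likelihood test, Benjamini-Hochberg) made up 45.6% of all 14110 tested, with 23.6% higher and 22.1% lower with Dox, so 2 of 6 is no more than the background. Normalized CPM of the groups did not overlap for 4 of the 6 tested members, against 59.6% of all tested genes. The median log2 fold change of the 6 was 0.05, and that of all tested genes 0.07. The summed level of the 4 Fcγ receptor genes was 37.1 ± 2.9 normalized CPM in the 3 libraries without Dox and 39.6 ± 5.7 in the 3 with Dox (± SD), so that the means lay closer together than the replicates did.

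**Figure D1:**
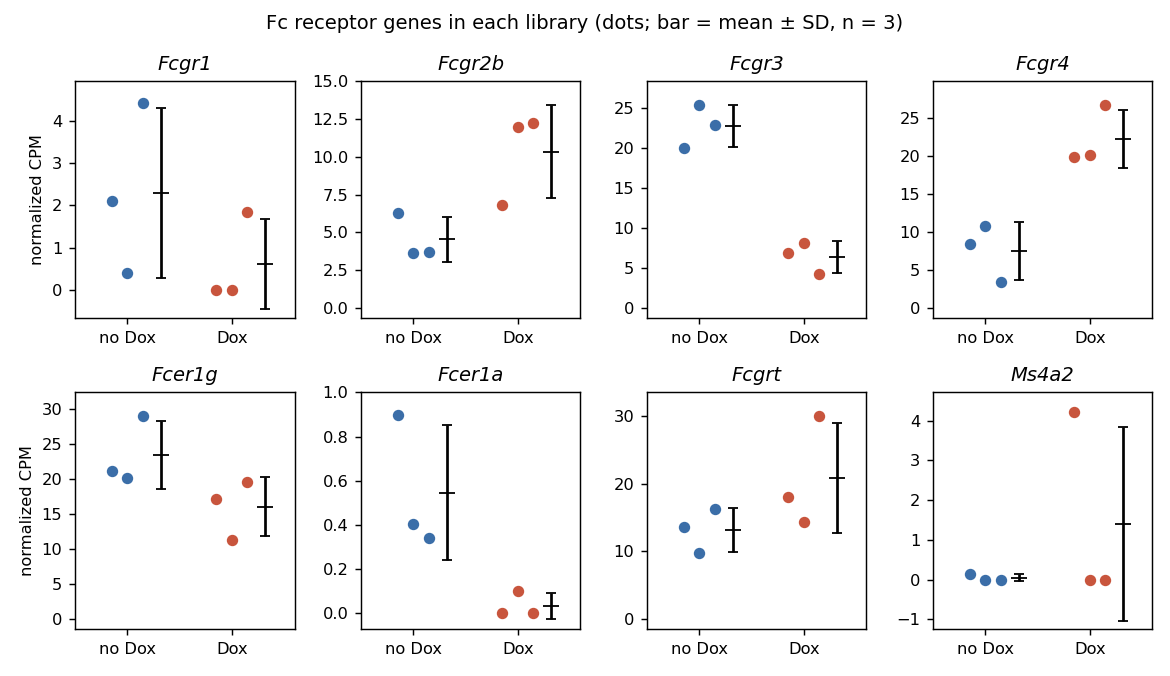
Normalized CPM (y axis, linear, own scale per gene) of the 8 Fc receptor genes in each library without Dox (blue) and with Dox (red); dots are libraries in order of replicate number, bars are mean ± SD (n = 3). The groups are apart for Fcgr3, at 20.0 to 25.3 against 4.22 to 8.13, and for Fcgr4, at 3.39 to 10.7 against 19.9 to 26.6, while those of Fcgrt overlap.

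Fcgr3, the low-affinity activating receptor known as CD16, had 134, 125 and 135 counts without Dox and 51, 79 and 32 with Dox. Scaled to normalized CPM, the level without Dox was 20.0, 25.3 and 22.9, and the level with Dox 6.94, 8.13 and 4.22. Each library with Dox lay below each library without it. On the log2 scale the change was -1.81 ± 0.35 (SE; edgeR adjusted p = 0.00206). Only 11.5% of all tested genes had a lower fold change.

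Fcgr4, a later described activating receptor of the same gene cluster, moved the other way. Without Dox it had 56, 53 and 20 counts and with Dox 146, 195 and 202, or 8.36, 10.7 and 3.39 against 19.9, 20.1 and 26.6 normalized CPM. The groups did not overlap, and replicate 6 was the lowest library without Dox. This was a log2 fold change of 1.57 ± 0.42 (SE; edgeR adjusted p = 0.0125). Among the 2528 tested genes within 0.5 of Fcgr4 in average log2 CPM, 46.9% passed the same threshold. At a threshold of 0.01 the call was lost, and among the 16 alternatives adjusted p lay between 0.00237 and 0.0496, highest without replicate 4 of the group without Dox.

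Fcgr2b, the inhibitory receptor, had 6.27, 3.65 and 3.73 normalized CPM without Dox and 6.80, 11.9 and 12.3 with Dox. The groups did not overlap, although replicate 10 with Dox lay close to replicate 4 without it. The log2 fold change of 1.18 ± 0.48 (SE; 95% interval 0.10 to 2.25) did not pass the threshold (adjusted p = 0.0703 by edgeR). Without replicate 10 of the Dox group it passed (1.37, adjusted p = 0.0437), as it did when libraries were scaled by size only (1.49, adjusted p = 0.0253), a scaling under which the median of all tested genes shifted by 0.31. It also passed when genes under 10 counts in any library were dropped (1.29, adjusted p = 0.0267).

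Fcgr1, the high-affinity IgG receptor known as CD64, was near the limit of detection. It had 14, 2 and 26 counts without Dox and 0, 0 and 14 with Dox, where 3 counts correspond to 0.309 to 0.608 normalized CPM across the libraries, a floor that covers counting error only. The groups overlapped, and the log2 fold change of -1.90 ± 1.56 (SE) did not pass the threshold (adjusted p = 0.349 by edgeR). Replicate 12 held all Dox counts of this gene. Without it the gene was called lower (adjusted p = 0.0237), from 0 counts in both remaining Dox libraries.

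Fcer1g, the signalling chain of the activating receptors and of the IgE receptor, was at 21.2, 20.1 and 29.0 normalized CPM in the untreated libraries and at 17.1, 11.3 and 19.5 in the treated ones. The groups did not overlap, with replicate 12 with Dox just below replicate 5 without it. The log2 fold change of -0.55 ± 0.31 (SE; 95% interval -1.25 to 0.14) did not pass the threshold (adjusted p = 0.176 by edgeR). That interval includes no change. In each of the 16 alternatives the value stayed negative and the gene was not called, with log2 fold changes from -0.74 to -0.25.

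The IgE receptor chains were hardly detected. Fcer1a, which binds IgE, had 6, 2 and 2 counts without Dox and 0, 1 and 0 with Dox. Ms4a2, the beta chain that amplifies the signal, had 1 count in all without Dox, in replicate 4. With Dox it had 31, 0 and 0 counts, the 31 coming from replicate 10. Neither gene passed the filter on low counts, and no fold is given for them. Markers of mast cells and basophils summed to 24.0 to 35.9 normalized CPM without Dox and 90.2 to 116 with Dox. Of the 13 markers 8 were tested, and 3 rose: Kit, a growth factor receptor also made by progenitors, Mcpt8, a basophil protease, and Hdc, the histamine-forming enzyme. Mcpt8 (8, 2 and 11 counts without Dox) and Hdc (1, 3 and 2) were under 10 counts in at least 1 library and entered the test through the Dox libraries. In all, 6 of the 8 tested markers were under 10 counts in some library, and of the other 2 Kit was higher and Il1rl1 did not pass (adjusted p = 0.0624 by edgeR); a refit of genes with 10 or more counts in every library called 2 of 2 higher. The mast cell protease genes Cpa3, Tpsb2 and Mcpt4 had lower means with Dox and did not pass in edgeR: Cpa3 was at 3.94 ± 0.18 and 0.663 ± 0.821 normalized CPM, Tpsb2 at 4.31 ± 0.45 and 0.527 ± 0.913, and Mcpt4 at 2.86 ± 1.23 and 0.571 ± 0.989 (SD, n = 3 each). Of the mast cell and basophil list, 2 genes were called lower by DESeq2, 2 by limma-voom and 3 by edgeR without Dox replicate 12. Without Kit the list summed to 19.1 to 33.6 normalized CPM without Dox and to 57.0 to 78.4 with Dox. Tpsab1, a mast cell tryptase, was at 0 counts in all libraries, and the mast cell protease Cma1 was at 0 with Dox. The part of these cells in the Ms4a2 and Fcer1a counts was not tested.

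Fcgrt, the heavy chain of FcRn, was at 13.6, 9.73 and 16.3 normalized CPM without Dox and 18.1, 14.4 and 30.0 with Dox. The groups overlapped, and replicate 12 with Dox stood highest. Its log2 fold change was 0.66 ± 0.36 (SE, 95% interval -0.16 to 1.47), short of the threshold (adjusted p = 0.169 by edgeR). Over the 16 alternatives the log2 fold change of Fcgrt ran from 0.28 to 0.95, and the gene was called in none. The partner chain gene B2m was at 1850, 2305 and 2272 normalized CPM without Dox and 7418, 4923 and 2156 with Dox. Its log2 fold change of 1.17 ± 0.35 (SE) passed the threshold (adjusted p = 0.0197 by edgeR) although the groups overlapped. That call was lost without any 1 of replicates 4, 5, 6, 10 and 11, with adjusted p-values from 0.0523 to 0.0985, and at a threshold of 0.01; it was kept without replicate 12. Of the 6 listed FcRn partner and endosome genes, all tested and each at 10 or more counts in every library, 2 rose and 2 fell. Among all tested genes 23.6% were higher and 22.1% lower with Dox. Cd74, the invariant chain of MHC class II, rose by 3.60 on the log2 scale. Rab5a and Rab11a, GTPases of early and of recycling endosomes, fell by 1.68 and 0.80, and neither was called without replicate 4 of the group without Dox or at a threshold of 0.01. Rab11a was also not called without replicate 6 or with library size only. Rab4a and Rab11fip1 did not pass.

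**Figure D2:**
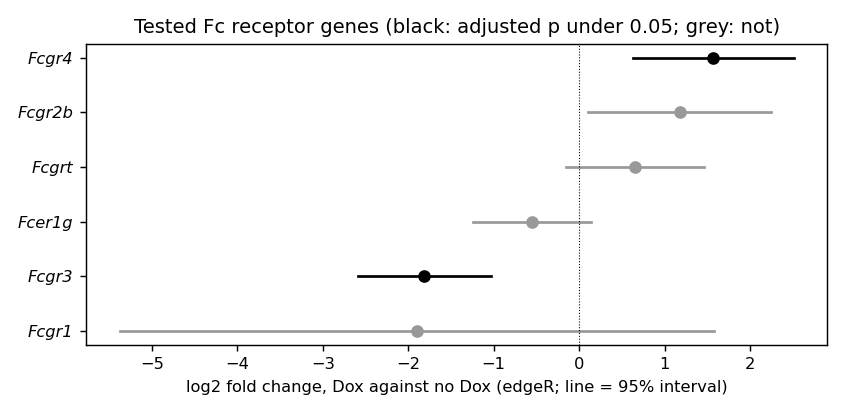
Log2 fold change (x axis) of the 6 tested Fc receptor genes, Dox against no Dox, with 95% intervals from the edgeR fit. Black marks genes past an adjusted p-value of 0.05, Fcgr4 at 1.57 and Fcgr3 at -1.81; the interval of Fcgr1, from -5.38 to 1.57, is the widest.

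Because a 3′ library gives about 1 fragment per transcript whatever its length, levels of different genes were set side by side as counts. Without Dox the order by mean normalized CPM was Fcer1g (23.4 ± 4.9), Fcgr3 (22.7 ± 2.7), Fcgrt (13.2 ± 3.3), Fcgr4 (7.50 ± 3.75), Fcgr2b (4.55 ± 1.49), Fcgr1 (2.30 ± 2.01), Fcer1a (0.547 ± 0.304) and Ms4a2 (0.0497 ± 0.0862; SD, n = 3 each). With Dox it was Fcgr4 (22.2 ± 3.8), Fcgrt (20.9 ± 8.2), Fcer1g (16.0 ± 4.2), Fcgr2b (10.3 ± 3.1), Fcgr3 (6.43 ± 2.01), Ms4a2 (1.41 ± 2.44), Fcgr1 (0.615 ± 1.07) and Fcer1a (0.0343 ± 0.0594; SD, n = 3 each). Fcgr4 was thus the most abundant Fcγ receptor transcript with Dox and Fcgr3 without it. Without Dox the libraries' ranges overlapped between neighbours in the order, except between Fcgr3 and Fcgrt and between the barely detected Fcer1a and Ms4a2. With Dox the ranges of all neighbours overlapped. The order of overlapping neighbours is not firm.

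The same change of order showed in the makeup of Fcγ receptor counts within each library, a measure that library scaling does not touch. It was chosen after the values were seen and is given with no test. Fcgr3 made up 54.5%, 63.1% and 66.5% of the 246, 198 and 203 Fcγ receptor counts without Dox, and 20.6%, 20.3% and 9.38% of the 247, 390 and 341 with Dox. The 95% Wilson intervals ran no lower than 48.2% without Dox and no higher than 26.1% with Dox. Fcgr4 made up 22.8%, 26.8% and 9.85% without Dox. With Dox it took 59.1% and 59.2% in replicates 10 and 12, and 195 of 390 counts in replicate 11. Its intervals reached at most 33.3% without Dox and at least 45.1% with Dox. These intervals cover counting error only.

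The share of Fcgr2b was 12.3% ± 4.2 in the group without Dox and 25.8% ± 4.9 in the group with Dox (SD, n = 3 each). Set against the activating genes, the counts of Fcgr1, Fcgr3 and Fcgr4 together were 7.11 times those of Fcgr2b without Dox and 2.89 times with Dox (geometric means). As log2 ratios these were 2.25, 3.25 and 2.98 in the untreated libraries against 1.96, 1.23 and 1.41 in the treated ones, lower in 3 of 3 Dox libraries. The exact two-sided permutation p was 0.1, the smallest that 3 against 3 libraries allow, and 0.15 after adjustment over the 3 ratios compared. Fcer1g counts were 0.714 times those of the activating genes without Dox and 0.537 times with Dox, and the groups overlapped (exact two-sided permutation p = 0.3, adjusted 0.3). Fcgrt counts were 0.562 times those of Fcer1g without Dox and 1.27 times with Dox, with no overlap (exact two-sided permutation p = 0.1, adjusted 0.15).

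**Figure D3:**
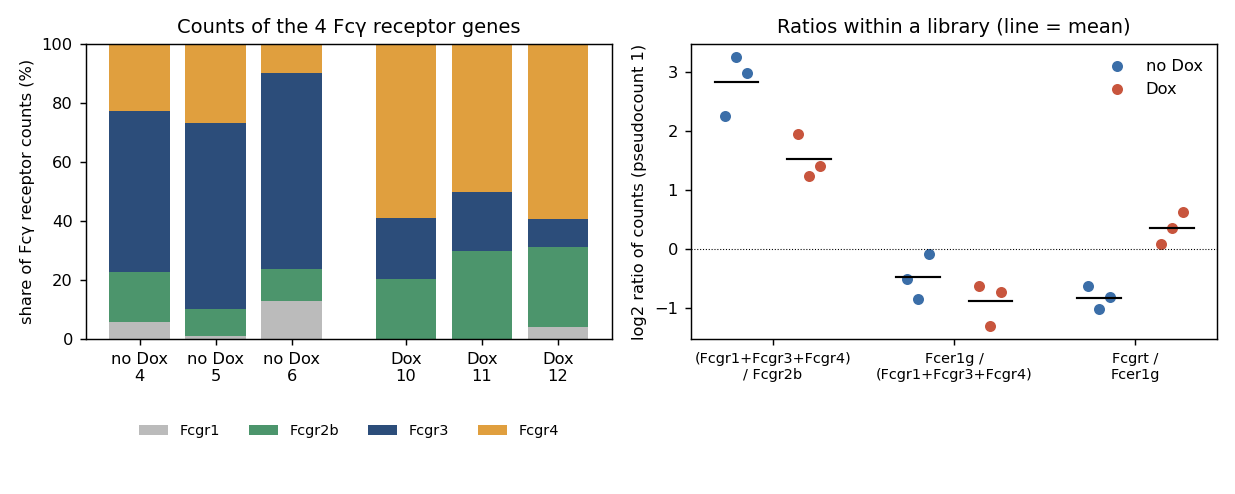
Left, share of each Fcγ receptor gene in the counts of all 4 (y axis, percent) in each library, labelled by group and replicate; right, log2 ratios of counts (pseudocount 1) within each library, with group means as lines. Fcgr3 holds the largest share in the 3 libraries without Dox and Fcgr4 in the 3 with Dox.

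Reads of these similar genes could be confused, so the last 500 bases of their GENCODE protein-coding transcripts were compared with all other transcripts. None of the 50-base stretches of Fcgr3 or Fcgr4 occurred in another gene, and 2.25% of those of Fcgr2b occurred in Fcgr3. The other 5 genes shared none. Fcgr3 and Fcgr4 each overlap an annotated small RNA gene on their own strand (the miRNA Mir6546 and the snRNA Gm26110). Fcgr2b and Fcgrt each overlap an annotated antisense transcript (Gm38204 and Gm45669), and the strand setting of the counting is not given in the sources used here.

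Of 11 listed relatives of the Fc receptors 7 were tested, 6 rose and none fell. Of these 7, 5 were under 10 counts in at least 1 library, and genes that entered the test through the Dox libraries had to differ. Of the 2 with at least 10 counts in every library, Fcrla was higher and Trim21 did not pass; when such genes alone were refitted, 2 of 2 were higher. Fcmr, the IgM receptor of B cells, had 0.597, 0.203 and 0.339 normalized CPM without Dox and 77.0, 129 and 142 with Dox. Fcer2a, the low-affinity IgE receptor CD23, went from 1.51 ± 2.21 to 69.8 ± 18.7 normalized CPM (mean ± SD of 3 libraries; edgeR adjusted p = 0.000182). Its level without Dox rests on replicate 5, with 20 counts against 2 and 1, and the log2 fold change of 5.65 became 8.03 without that library, 5.05 without replicate 4 and 5.02 without replicate 6. Fcrl1 and Fcrla, Fc receptor-like genes of B cells, rose by 4.18 and 4.38 on the log2 scale. Trim21, a cytosolic antibody receptor, did not pass (1.10 ± 0.44 (SE), adjusted p = 0.0666 by edgeR); it passed in 4 of 16 alternatives, with adjusted p-values from 0.0259 to 0.0477. The 10 B cell markers, with Fcmr among them, all rose (6 of 6 with at least 10 counts in every library) and summed to 39.4 to 45.9 normalized CPM without Dox and 2126 to 2392 with Dox; their part in these values and in that of Fcgr2b was not tested.

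Genes of activating signalling were mixed. Of 20 genes 19 were tested, 10 rose and 2 fell, against 23.6% higher and 22.1% lower of all tested genes. Their median log2 fold change was 0.93. Of the 17 with at least 10 counts in every library 9 were higher and 2 lower. Lyn, a kinase that phosphorylates the activation motif, went from 34.3 ± 5.4 to 230 ± 42 normalized CPM (± SD of 3 libraries), and Syk, the kinase that binds it, from 11.3 ± 0.9 to 160 ± 32. The adaptor Lat fell by 4.17 on the log2 scale. Rac2, a GTPase of phagocytes and lymphocytes, fell by 0.49 (adjusted p = 0.0227 by edgeR), a call lost in 6 of 16 alternatives, among them without replicate 4 (adjusted p = 0.0553) or 5 (0.0788), and the adaptor Grb2 did not pass the test (0.05 ± 0.18 (SE)). Syk was picked out after its values were seen. The part of T cells, B cells and myeloid cells in the values of these signalling genes was not tested.

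Of 10 genes of inhibitory signalling 3 rose and 3 fell (median log2 fold change -0.27), against 23.6% higher and 22.1% lower of all tested genes. Inpp5d, which encodes SHIP1, the phosphatase that Fcgr2b recruits, was at 15.2 ± 5.1 normalized CPM without Dox and 55.2 ± 18.1 with Dox (± SD of 3 libraries; edgeR adjusted p = 0.00126); it was named after its values were seen. The tyrosine phosphatase gene Ptpn6 went from 94.3 ± 12.6 to 254 ± 29. Cbl, a ubiquitin ligase, and Csk, an inhibitor of Src kinases, fell by 0.76 and 0.73 on the log2 scale. The call of Csk was lost when libraries were scaled by size only. Ptpn11, another tyrosine phosphatase, did not pass (0.43 ± 0.19 (SE), adjusted p = 0.0884 by edgeR), but did with upper-quartile scaling (0.0412), with library size only (0.0119) and with at least 10 counts in every library (0.0294).

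Other adaptor chains of immune receptors divided by lineage. Of 8 genes, the T cell receptor chains Cd3d, Cd3e, Cd3g and Cd247 fell, Cd3d from 473 ± 4 to 16.1 ± 1.7 normalized CPM (SD, n = 3 each), and the B cell receptor chains Cd79a and Cd79b rose. Tyrobp, the myeloid and NK adaptor DAP12, was at 40.0 ± 8.2 and 33.6 ± 9.8 normalized CPM and Hcst, the adaptor DAP10, which carries no ITAM, at 20.0 ± 2.4 and 23.6 ± 2.4; neither passed (adjusted p = 0.477 and 0.475 by edgeR), and the sign of Tyrobp turned with scaling by library size only. Tyrobp, Hcst, Cd79a and Cd79b were picked out after their values were seen.

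Of 9 receptors that pair with the Fcer1g chain 6 were tested, 2 rose and 1 fell. Among all tested genes 23.6% were higher and 22.1% lower with Dox, so these counts are near the background. With at least 10 counts in every library 4 of the 6 remained, 1 higher and 1 lower in the reported fit, and a refit of such genes gave 2 higher and 2 lower. Clec4n, the fungal receptor Dectin-2, went from 44.3 ± 7.3 to 16.4 ± 4.5 normalized CPM (± SD of 3 libraries; edgeR adjusted p = 0.00236). Pira2, an activating leukocyte receptor from a family of similar genes, went from 9.30 ± 0.32 to 67.7 ± 10.7, and Gp6, the platelet collagen receptor, from 0.419 ± 0.406 to 19.7 ± 8.4 (SD, n = 3 each). Gp6 had 3, 4 and 0 counts without Dox and entered the test through the Dox libraries. Cd300ld did not pass (1.32 ± 0.53 (SE), adjusted p = 0.0668 by edgeR), but did in 3 of 16 alternatives: with library size only (adjusted p = 0.0288), with at least 10 counts in every library (0.0207) and without Dox replicate 10 (0.0269).

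Transcripts of antibody classes, the ligands, differed in direction. Of 8 constant region genes 4 rose, 2 fell and 2 did not pass, against 23.6% higher and 22.1% lower of all tested genes. In at least 1 library 4 of the 8 had under 10 counts. With at least 10 counts required in every library 2 were higher and 1 lower. Ighg1 had 3938, 2477 and 3259 counts without Dox and 30, 72 and 66 with Dox, and Ighe had 740, 583 and 602 counts and then 0 in each Dox library, whereas Ighm rose by 1.95 on the log2 scale. The other genes that rose were Ighd, Igha (1.41) and Ighg3 (3.34), the last not called without replicate 5 (adjusted p = 0.0537 by edgeR) or by limma-voom (0.057). Ighd (2, 1 and 0 counts without Dox) and Ighg3 (6, 2 and 2) entered the test through the Dox libraries. Ighg2b (0.70 ± 0.54 (SE), adjusted p = 0.317 by edgeR) and Ighg2c (-2.69, adjusted p = 0.0663 by edgeR) did not pass. Ighg2c was called lower without a filter, by DESeq2, by limma-voom and without Dox replicate 10 or 11, and Ighg2b was at -0.10 without Dox replicate 12. Counts of constant region genes depend on how shared reads were assigned.

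Cell type markers moved with the groups as follows, and their part in the values of Fcgr3, Fcgr4 and Fcer1g was not tested. All 14 neutrophil markers rose, although 10 of them had under 10 counts in at least 1 library; of the 4 with at least 10 in every library 4 were higher. They went from a sum of 55.4 to 72.5 normalized CPM to 2360 to 2488, with Ly6g at 0 in each library without Dox. Of 16 macrophage and monocyte markers 15 were tested, 7 rose and 3 fell (1 without replicate 4 of the group without Dox); their sum was 800 to 932 without Dox and 1213 to 1479 with Dox, and Vsig4 was at 0 in all libraries. Adgre1, which encodes the macrophage antigen F4/80, fell by 1.68 on the log2 scale (adjusted p = 0.00786 by edgeR), a call lost without that replicate (adjusted p = 0.0551), and Itgam, an integrin of neutrophils and monocytes, rose by 4.16; both were picked out after their values were seen. Of 9 dendritic cell markers 8 were tested and 7 rose (3 of 4 with at least 10 counts in every library), and of 9 endothelial markers 4 rose (3 of 6 with at least 10 counts in every library). Of 8 NK cell markers 4 were tested, each with under 10 counts in at least 1 library, so that none stayed in the test with 10 required in every library. Eomes, a transcription factor, and Klrd1, a lectin-like receptor, entered the test through the Dox libraries and were 3.88 and 4.03 higher there on the log2 scale. Klrb1c, with 20, 20 and 14 counts without Dox and 27, 16 and 0 with Dox, did not pass (-0.82 ± 1.17 (SE), adjusted p = 0.599 by edgeR). The call of Klrd1 was lost at a threshold of 0.01 and without replicate 4, 6, 10 or 11 (adjusted p = 0.132, 0.118, 0.0705 and 0.0682 by edgeR), and without replicate 5 its value was 7.996. The granule protease gene Gzma fell, from 363 ± 29 normalized CPM (SD, n = 3) to 0 counts in each Dox library. The sum of the NK cell markers therefore ran from 349 to 398 normalized CPM without Dox and from 17.5 to 26.5 with Dox, but from 3.22 to 7.70 without Dox once Gzma was left out. Klra8 was at 0 in all libraries.

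**Figure D4:**
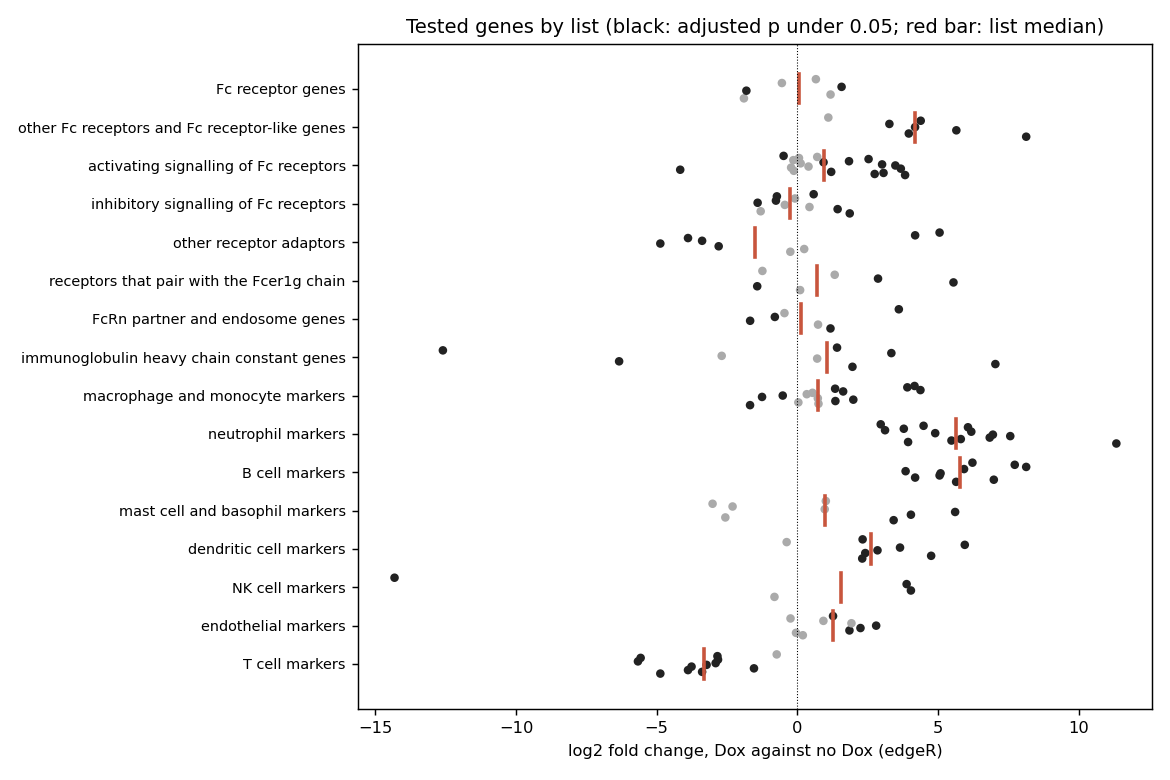
Log2 fold change (x axis, Dox against no Dox, edgeR) of each tested gene in the Fc receptor set and in the other lists; black dots passed an adjusted p-value of 0.05, grey dots did not, and red bars are list medians. The median of the Fc receptor genes is at 0.05, those of neutrophil and B cell markers at 5.64 and 5.78; genes at 0 counts in a group, such as Ighe and Gzma, have fitted values that depend on the prior count.

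Genes whose levels ran most alike were found by Pearson's r of log2 normalized CPM over the 6 libraries, among 7053 tested genes of at least median level. For Fcgr3 they were Rac2, Mrfap1 and Rab1a (r = 0.998, 0.998 and 0.998), and for Fcgr4 Itga1, Gm21451 and Vav2 (r = 0.997, 0.997 and 0.995). For Fcgr2b they were Nrde2, Prpf39 and Dhx16 (r = 0.989, 0.988 and 0.985). Fcer1g ran most like Taf12, Rbm15b and Gabpa (r = 0.982, 0.980 and 0.970), Fcgrt like Metap1, Cog2 and Psd4 (r = 0.996, 0.990 and 0.988), and Fcgr1 like Vamp3, Zfp672 and Elmo1 (r = 0.980, 0.974 and 0.970). The 6 points come from 2 groups, and the values are given as a description.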

How the data were processed

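The deposited file is a table of unnormalized read counts by Entrez gene, 1 column per library. STAR, featureCounts and GRCm38 are named in the submitters' processing notes, without versions; the annotation, the strand setting and the handling of multi-mapped reads are not given in the sources used here. Libraries were made with QuantSeq, a kit that reads mRNA 3′ ends, per the labels' protocols. The columns were matched to samples by title, and symbols came from RefSeq (GRCm38.p6; 39374 of 40808 IDs matched).

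After filterByExpr (in at least 3 libraries, the CPM that 10 counts give in a library of median size, and 15 counts in total; genes may be lower in the other libraries) and TMM scaling, the 6 libraries were fitted by group alone in edgeR 4.0.16 (R 4.3.3; glmQLFit, glmQLFTest). Benjamini-Hochberg adjustment ran over all tested genes, at a threshold of 0.05. Standard errors were derived from the fold change and F statistic. Ratios used a pseudocount of 1. Alternatives covered scaling, filters, haemoglobin genes, DESeq2 1.42.0, limma 3.58.1, a threshold of 0.01, another pseudocount and leaving out each library.

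The members and gene lists were chosen with earlier results of these data known. Genes named are the 8 members, up to 4 tested genes of highest average level per list, the 3 tested genes most like each member, and others said to be chosen after their values were seen; Fcer1a, Ms4a2, list genes at 0 counts, Ddx3y, Xist, Trim21, Kit, Mcpt8, Hdc, Cma1, Gzma, Klra8, Vsig4, Eomes, Klrd1, Cpa3, Tpsb2, Mcpt4, Il1rl1, Rab5a, Rab4a and the constant region genes were described for their counts or calls.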

Additional observations from a re-analysis of the deposited data

How the results depend on the processing

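No paired analysis was possible because replicate numbers differ throughout between the groups. Fcgr3 stayed lower and past the threshold in all 16 alternatives (log2 fold change -2.05 to -1.50). Fcgr4 stayed higher in all 16 (1.13 to 1.89) and past the threshold in all but that of 0.01. With 1 Fc receptor gene higher in the reported fit, the number was 2 with library size only, 2 with at least 10 counts in every library, and 0 at a threshold of 0.01, where 2200 of all genes were higher in place of 3324. Leaving out 1 library at a time gave 1 to 2 Fc receptor genes higher (2 without Dox replicate 10, by Fcgr2b) and 1 to 2 lower (2 without Dox replicate 12, by Fcgr1), 4794 to 7025 genes past the threshold in all, 2284 to 3396 higher and 2459 to 3629 lower. Higher genes made up 51.6% of calls, 64.3% with library size only, 44.7% without a filter, 45.1% with limma-voom and 47.6% to 50.2% over the fits that left out a library. Over the same fits the log2 ratio differences ran from -1.59 to -1.09 for activating to inhibitory genes, from -0.60 to -0.21 for Fcer1g to activating genes, and from 1.04 to 1.31 for Fcgrt to Fcer1g. Tyrobp turned to 0.056 with library size only, and Grb2, near 0 in the reported fit, to -0.0821 without a filter and -0.011 without replicate 4, -0.0562 without replicate 5 and -0.0983 without replicate 11, in a range up to 0.165 over the fits that left out a library; the cause was not tested. Both other filters, the fit without haemoglobin genes and the fits that left out a library change which genes are tested. Without a filter 27308 genes were tested, with the strict filter 10131, and with a library left out 14800 to 15676, against 14110 in the reported fit. Few counts limit Fcgr1, Fcer1a and Ms4a2, which had at most 31 counts in a library.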
